A study of Mus musculus with 10 samples.

Results

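GLIS3 binding sites on mouse chromosome 7 were taken from a list of sites called in the thyroid gland. The list held 18513 sites, of which 1074 were on this chromosome. The chromosome was chosen by measured values of the same list, since it was the autosome with the fewest sites for its number of protein-coding genes. Its 53.1 sites per 100 protein-coding genes stood just inside that choice and the 70.7 of chromosome 17 just outside, and neither value was tested.

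GLIS3 was precipitated from thyroid glands of young adult Glis3-EGFP mice, which carry a GLIS3-EGFP fusion on a C57BL/6 background and had received food low in iodine (low-iodine diet, LID) for 2 weeks. Wild-type (WT) C57BL/6 mice on the same diet, which carry no EGFP, gave the control. Both chromatin samples were pulled down with agarose crosslinked to a peptide that binds GFP, so the control shows what this material retains without the fusion protein. There was 1 library per group, with 4516562 selected tags for Glis3-EGFP and 5171171 tags for WT, so no spread between mice can be given and no test of the groups was possible. How many mice were behind each library is not stated in the sources used here. A whole gland holds other cells beside the follicular cells.

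GLIS3 is a Krüppel-like zinc finger transcription factor. In thyroid follicular cells it acts on genes that the cells need to take up iodide and make thyroid hormone, and a diet low in iodine raises thyroid stimulating hormone (TSH), which drives these genes. Mouse chromosome 7 is rich in genes that arose by local duplication. It carries clusters of olfactory receptors (Olfr), which detect odours in the nose, of vomeronasal receptors (Vmn1r and Vmn2r), which detect pheromones, and of kallikrein (Klk) genes, which encode secreted proteases. The potassium channel gene Kcnq1, the chloride channel gene Ano1, and the imprinted genes Igf2, Cdkn1c, Snrpn, Ube3a and Peg3, which many tissues or certain cell types express mainly from 1 parental copy, are on it too. The annotation used here is of GRCm38 and the sites are in mm9, so no site was assigned to any of these genes.

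The number of sites was low for the genes of chromosome 7 and not for its length. The sites spread over 149 Mb from the first to the last, which gave 7.20 sites per Mb, against 5.13 to 12.5 on the other 18 autosomes with a median of 7.56. Chromosome 7 had 2023 protein-coding genes, more than any other autosome in this annotation. It held 5.80% of all sites of the list and 9.72% of the autosomal protein-coding genes.

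Receptor genes made up much of this gene number. Olfactory receptors counted 244 genes, Vmn1r receptors 103 and Vmn2r receptors 51, together 398 or 19.7% of the genes of the chromosome. On the other autosomes, receptor genes of the nose and tongue were 0 to 16.0% of the genes, with chromosome 2 the highest. In gene order, the receptors of chromosome 7 formed 55 blocks uninterrupted by another protein-coding gene. Of these, 13 blocks held at least 10 genes each and 282 receptor genes in all, and the longest ran over 42 olfactory receptor genes from Olfr467 to Olfr519. Other families that can occur in tandem, taken by name stem and called other tandem families below, counted 257 genes. Among them were 92 Zfp genes for zinc finger proteins, 30 Scgb genes for secretoglobins, 26 Klk genes and 19 Mrgpr genes for receptors of sensory neurons. Whether these 257 genes lie side by side was not checked.

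The sites per gene were also counted with these genes left out on every chromosome. All sites were kept, so leaving out genes could only raise a value or leave it unchanged. Without the receptors chromosome 7 held 66.1 sites per 100 genes (95% exact Poisson interval of the site number, 62.2 to 70.2), against 78.1 on chromosome 17 (72.6 to 83.9). Without the receptors and the other tandem families it held 78.5 (73.9 to 83.3), against 80.3 on chromosome 3 (74.8 to 86.1), which was then the next lowest. The median of the other autosomes was 98.6 after the first step and 100.8 after the second. The name stems were chosen for families of chromosome 7, where 257 such genes lie against 6 to 54 on each other autosome, and 26 of 27 autosomal Klk genes are on it. A rise of its value by the second step was therefore fixed by the choice of stems and is no finding. The rise by the first step was fixed too, since chromosome 7 had the highest share of receptor genes and no site was left out. Chromosome 7 had the lowest value of the 19 autosomes under each of these counts, but after the last step its interval overlapped that of chromosome 3. These intervals cover counting error only and are too narrow for sites that lie close together, and the number of sites was the measure that chose the chromosome.

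**Figure D1:**
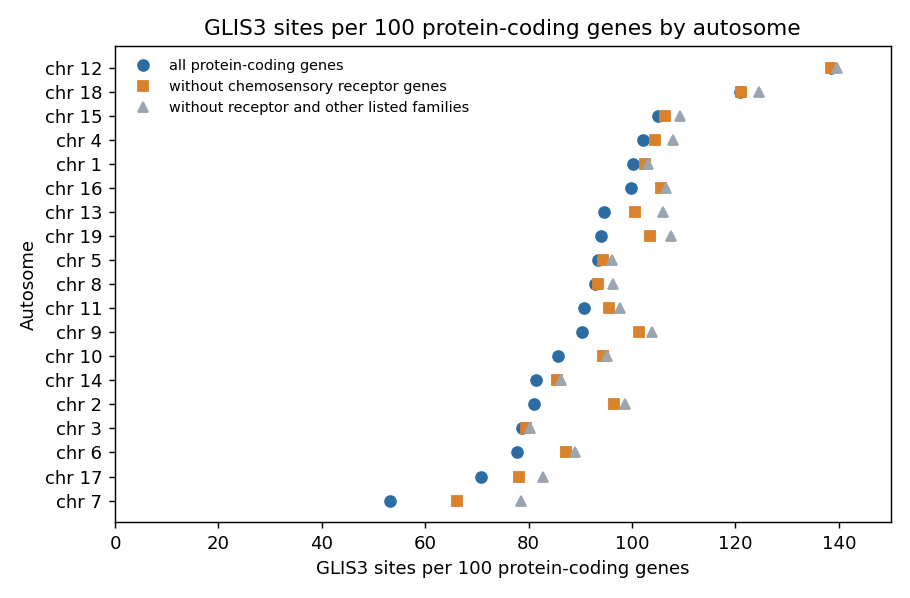
GLIS3 sites per 100 protein-coding genes (x axis) for each of the 19 autosomes (y axis), with all genes (circles), without chemosensory receptor genes (squares) and without receptor and other tandem gene families (triangles). Chromosome 7, in the lowest row, moves from 53.1 to 66.1 and 78.5, against 80.3 on chromosome 3. All sites are kept in each count.

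The sites gathered in part of the chromosome. In windows of 1 Mb, 44 of 150 windows (29.3%, 95% exact binomial interval 22.2 to 37.3) held no site, while 10 windows with over 20 sites each held 256 sites, or 23.8% of all. The median window held 4 sites and the mean 7.16. The fullest 26 windows, or 17.3% of all, were enough to hold 50% of the sites, against 14.0 to 22.5% on the other autosomes. The part toward the distal end was fuller, since the proximal 50% of the length from the first to the last site held 376 sites and the distal 50% held 698.

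In segments of 10 Mb, the first 2 segments held 14 and 21 sites, the first over only 7 windows. The segments from 20 to 30 Mb and from 30 to 40 Mb held 92 and 68 sites, followed by 18 sites from 40 to 50 Mb. Of the following segments, the one from 50 to 60 Mb held 92 sites and the one from 60 to 70 Mb held 10, the lowest of all. The segment from 80 to 90 Mb held 117 sites, and the next, from 90 to 100 Mb, held 18. The segment from 70 to 80 Mb, with 63 sites, was in between. Up to 100 Mb, segments with 10 to 21 sites thus lay among segments with 63 to 117. The fullest segment of all lay beyond, from 130 to 140 Mb, with 166 sites or 15.5%. From 116 Mb to the last site, all of 37 neighbouring windows held at least 1 site, with 458 sites in all and 12.4 sites per Mb. This block covered 24.7% of the windows and held 42.6% of the sites, and its median of 13 tags was the same as that of the other sites of the chromosome.

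The window with the most sites, from 87 to 88 Mb, held 35 sites in 16 groups separated by over 10 kb, with a median of 11 tags and at most 33 tags at a site. Next came the window from 139 to 140 Mb with 32 sites, that from 137 to 138 Mb with 29 and that from 125 to 126 Mb with 27. Windows with 23 sites lay from 30 to 31 Mb and from 56 to 57 Mb, windows with 22 sites from 29 to 30 Mb, 53 to 54 Mb and 136 to 137 Mb, and the tenth, with 21 sites, from 129 to 130 Mb. By summed tags the order was different, since the window from 29 to 30 Mb held 671 tags at its 22 sites and the window from 87 to 88 Mb held 450 at its 35. Across the 106 windows with a site, the number of sites and the median tags were almost unrelated (Spearman's rho = 0.0546, a description over windows of 1 library). Windows with 1 to 5 sites had a median of 12 tags per site and windows with over 20 sites a median of 13.

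**Figure D2:**
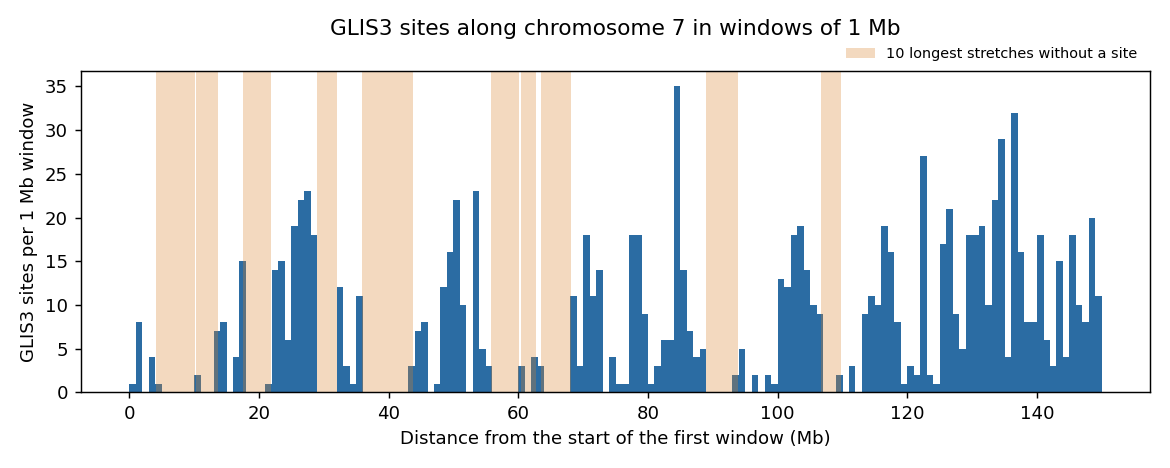
GLIS3 sites in each 1 Mb window of chromosome 7 (bars, y axis) by distance from the start of the first window, which begins at 3 Mb (x axis, Mb), with the 10 longest stretches without a site shaded. The highest bar is the window with 35 sites, and the 10 shaded stretches all lie before the last block of windows, each of which holds a site.

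Chromosome 7 was set beside chromosomes 5 and 6, which are of similar length, and chromosome 2, which also carries large olfactory receptor clusters. Empty windows made up 29.3% on chromosome 7, 22.0% on chromosome 5 (33 of 150, interval 15.7 to 29.5), 24.7% on chromosome 6 (36 of 146, 17.9 to 32.5) and 18.4% on chromosome 2 (33 of 179, 13.0 to 24.9). The interval of chromosome 7 overlapped all 3. Its share was the highest of the 19 autosomes in these windows, with chromosome 1 next at 28.0%, but it was the second highest with windows shifted by 0.5 Mb and the third highest with windows of 2 Mb. Windows with over 20 sites were 6.67% on chromosome 7, between the 4.79% of chromosome 6 and the 9.33% of chromosome 5.

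**Figure D3:**
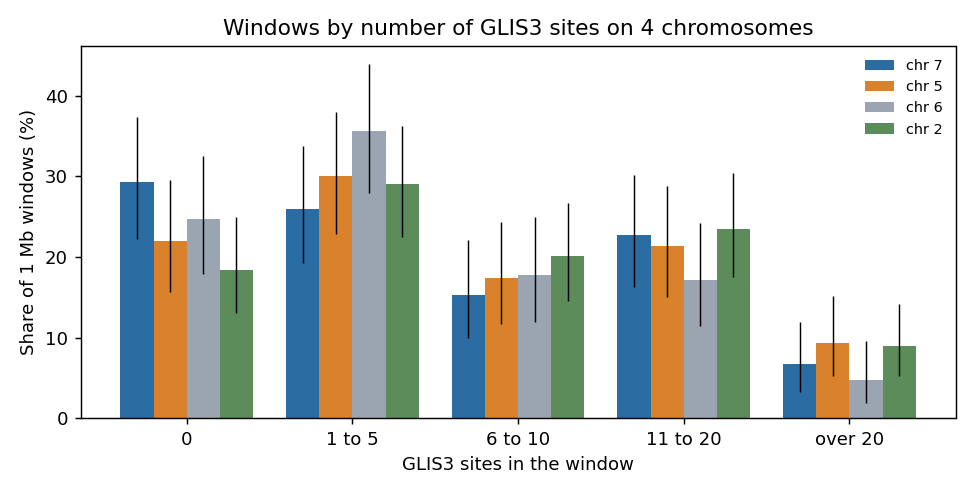
Share of 1 Mb windows (y axis, %) by the number of GLIS3 sites they hold (x axis) on chromosomes 7, 5, 6 and 2, with 95% exact binomial intervals as lines. Chromosome 7 has the highest share of windows without a site, 29.3%, but its interval overlaps the others.

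Long stretches without a site were counted between neighbouring sites. How much of their length tags can be aligned to was not analysed here, and the same holds for the empty windows. A lack of sites there is therefore not shown to be a lack of binding. There were 26 stretches of at least 1 Mb, which took up 68.1 Mb or 45.7% of the length from the first to the last site, against 23.9 to 48.8% on the other autosomes. Outside them chromosome 7 held 13.3 sites per Mb, close to the median of 13.0 for the other autosomes. A stretch without a site holds none that met the caller's thresholds, among them 9 tags and a fold of 2 over the WT control. At this depth that does not exclude weaker binding, nor places with 9 or more tags where the control was also high.

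The longest stretch ran from 38929512 to 46773130 of mm9, over 7.84 Mb, and was the sixth longest of all autosomes, where the longest was 11.6 Mb on chromosome 15. The next ran from 7074112 to 13063670 (5.99 Mb), from 91879792 to 96892110 (5.01 Mb), from 66483812 to 71055870 (4.57 Mb), from 58776752 to 63147270 (4.37 Mb) and from 20542012 to 24897330 (4.36 Mb). These 6 stretches came to 32.1 Mb, or 21.6% of the length. Of the remaining 4 of the 10 longest, 3 were of 3.04 to 3.27 Mb and 1, from 63344692 to 65654690, was of 2.31 Mb. Whether any of these stretches holds a receptor cluster was not analysed here, since the positions of the receptor genes are of another build.

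Several of these stretches were neighbours, parted by a few sites. Between 7074112 and 16626490, a length of 9.55 Mb, the stretches were broken by 2 sites of 18 and 9 tags, which spanned 297 kb. Between 58776752 and 65654690, over 6.88 Mb, they were broken by 3 sites of 9 to 12 tags. A further 7 sites of 9 to 14 tags stood between 65654691 and 66483811, before the stretch of 4.57 Mb. Between 109665472 and 114829150, over 5.16 Mb, the 2 sites in the middle had 10 and 14 tags. The stretch after these 2 sites, of 2.11 Mb, was not among the 10 longest. All sites inside these islands were at or below 18 tags. The 20 sites at the edges of the 10 longest stretches had 9 to 37 tags with a median of 10.5, and 6 of them had the minimum of 9.

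Site strength on chromosome 7 was like that of the list. Tags per site had a median of 13, quartiles of 10 and 18.75 and a range of 9 to 143, against a median of 13 and quartiles of 10 and 19 in all. Its median fold over the WT control was 13.74, the same as in the list. Where the control had no tag the caller set it to 1, so folds there are lower bounds. A fold of at least 10 was reached at 923 of 1074 sites (85.9%, 95% exact binomial interval 83.7 to 88.0), near the 86.0% of all 18513 sites. A site of 9 tags had a fold of 10.3 with 0 or 1 control tag, so this count mainly reads the control. At least 30 tags were found at 116 sites (10.8%, 9.01 to 12.8), near the 9.81% of the list. At the low end, 182 sites (16.9%) held the minimum of 9 tags, a count whose Poisson interval runs from 4.12 to 17.1.

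The strongest site, from 30246711 to 30246751, held 143 tags (95% Poisson interval 121 to 168) with a fold of 163.73 and was the seventh strongest of the list. The next, from 82057771 to 82057831, held 135 tags (113 to 160) and had no other site within 66 kb. The third, from 140086811 to 140086851, held 118 tags (97.7 to 141) and the fourth, from 31318211 to 31318251, held 112 (92.2 to 135). These 4 intervals overlap, so the order of these sites is within counting error, and they take no account of having chosen the strongest.

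The fifth site, from 29381891 to 29381931, held 102 tags and 3 tags in the WT control, which lowered its fold to 38.93. The other 9 of the 10 strongest had 0 or 1 control tag. A site of 99 tags lay from 150726991 to 150727031, close to the distal end. Sites of 88 tags, from 29381571 to 29381611, and of 87 tags, from 53868651 to 53868691, came next, followed by 2 of 78 tags, from 81019751 to 81019791 and from 136918211 to 136918251. A further site of 78 tags, from 108615531 to 108615571, ranked lower by its fold of 44.65. Of the 10 strongest sites, 9 had the narrowest width of 40 bp and 8 had another site within 1 kb, each within 300 bp. In runs of at least 5 sites lay 7 of the 10, and 1 stood alone. Of all sites of the chromosome, 28.9% were 40 bp wide, 26.5% had another within 1 kb, 14.1% lay in such runs and 44.1% stood alone. The 571 sites of the list with at least 50 tags also had a median width of 40 bp, and 52.0% had another within 1 kb. The sites of 102 and 88 tags were neighbours in the same run, and both are counted.

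Some of the strong sites gathered in a short part of the chromosome, while most lay elsewhere. Of the 37 sites with at least 50 tags, 9 lay in the 3 windows from 29000001 to 32000000, where they were 14.3% of 63 sites, against 3.45% on the chromosome. These windows held 4 of the 10 strongest sites. Several of the 9 shared a run and are not independent. Those of 53, 60, 88 and 102 tags lay in the same run, and those of 143 and 57 tags in another. They were picked as the 3 neighbouring windows with the most such sites, so the share is a description.

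Sites on chromosome 7 lay as close to one another as elsewhere. Another site was found within 1 kb of 285 sites (26.5%, 23.9 to 29.3), against 27.2% of the list, and within 10 kb of 600 sites (55.9%, 52.8 to 58.9), against 55.7%. Distances were measured between the facing edges of 2 sites. Among the 159 pairs of neighbours within 1 kb, the median distance was 280 bp, with quartiles of 200 and 500 bp. The caller had estimated a fragment length of 204 bp. In such a pair, the weaker site held a median of 0.6 of the tags of the stronger.

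Close neighbours were found more often at sites with more tags. Of the 327 sites with 9 or 10 tags, 20.5% (16.2 to 25.3) had another within 1 kb. The share was 25.5% at 502 sites of 11 to 19 tags and 33.7% (27.3 to 40.5) at 208 sites of 20 to 49 tags. At the 37 sites with 50 or more it was 54.1% (36.9 to 70.5), against 52.0% at the 571 such sites of the list. Sites within 1 kb may share fragments, so they are not independent observations, and the part of this in the result was not tested.

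**Figure D4:**
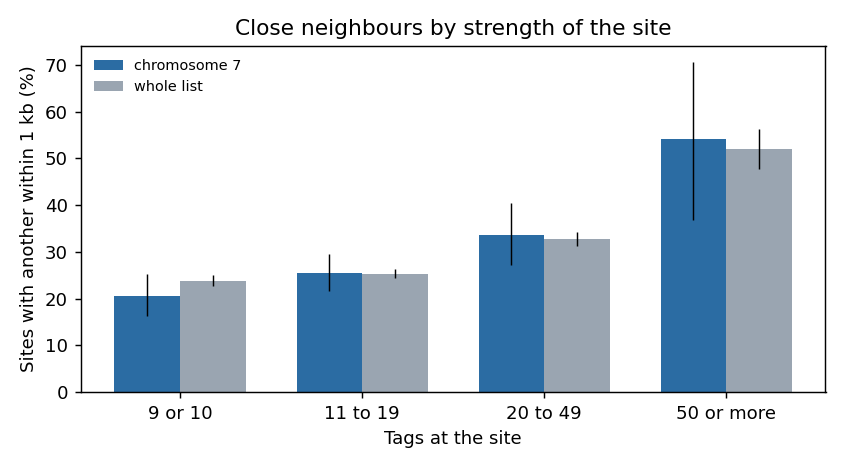
Percentage of GLIS3 sites that have a neighbour within 1 kb (y axis) by tags at the site (x axis), on chromosome 7 (blue) and in the whole list (grey), with 95% exact binomial intervals as lines. On chromosome 7 the share goes from 20.5% at 9 or 10 tags to 54.1% at 50 or more, with wide intervals at the right.

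Sites with gaps of at most 10 kb were joined into runs. On chromosome 7, 474 sites stood alone, 122 pairs, 47 runs of 3 and 16 runs of 4 were found, and 24 runs held 5 or more sites. These 24 runs held 151 sites, or 14.1% of the sites (12.0 to 16.3) and 18.5% of their tags, against 12.3% of the sites of the list. Their median fold was 11.45 to 29.2, and the median number of control tags was at most 1 in each. Sites in runs of at least 5 had a median of 14 tags (13 to 17), and sites that stood alone a median of 12 (11 to 12).

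The run with the most sites held 12 over 26.9 kb, from 29355031 to 29381931, with 491 tags in all. It tied for the eighth place in the list by sites and stood second by summed tags among 3647 runs of at least 2 sites. In order, its first 6 sites held 12, 45, 15, 53, 42 and 32 tags and its last 6 held 17, 11, 60, 14, 88 and 102. Strong and weak sites were thus mixed, and the 2 strongest lay 280 bp apart at one end. The sixth site had 5 control tags and a fold of 7.33, and 10 of the 12 sites passed a fold of 10.

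The second run, from 87198071 to 87234831, held 10 sites over 36.8 kb in the window with the most sites. It was weak, with 118 tags in all, a median of 10.5 tags and 23 at most, and 8 of its sites passed a fold of 10. The third, from 75207091 to 75242451, held 8 sites of 9 to 50 tags, with 0 or 1 control tag at each. Runs of 7 sites lay from 139992551 to 140003551, with 9 to 37 tags, and from 125604691 to 125610671, with 9 to 52 tags within 5.98 kb. The sixth, from 30246711 to 30255071, held 6 sites of 143, 24, 9, 57, 18 and 23 tags and began with the strongest site of the chromosome. In runs 1, 4 and 6 the strongest site stood at an end, and in the other 3 it lay inside.

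**Figure D5:**
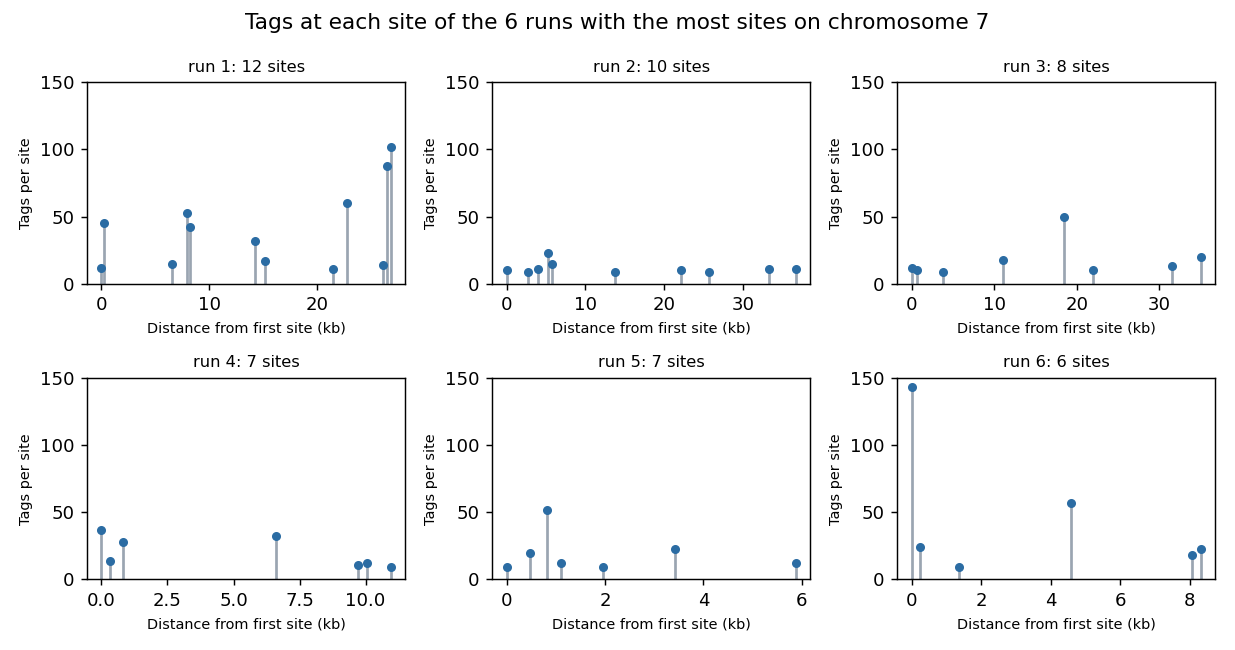
Tags at each site (y axis) by distance from the first site of the run (x axis, kb) for the 6 runs of chromosome 7 with the most sites, numbered by their sites and then their summed tags. Run 1 holds several sites above 40 tags, run 2 none above 23, and run 6 begins with the site of 143 tags.

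The WT control was low at most sites. The call favoured this, since a site needed a fold of at least 2 over the same control. The control counts below therefore follow in part from the call and are a description. The number of control tags came out whole, with a tolerance of 2%, for 1032 of 1074 sites, of which 843 (81.7%, 79.2 to 84.0) had 0 or 1 tag, 132 had 2 and 57 (5.52%, 4.21 to 7.10) had 3 or more, against 5.22% in the list. These 57 sites lay in 42 windows with at most 4 in 1 window. Their median was 12 tags, with a median fold of 4.20, and none had over 5 control tags. The lowest fold, 2.06, was at the site from 87940151 to 87940191 with 9 tags against 5, in the window with the most sites. All 39 sites of chromosome 7 with a fold under 5 were among these 57. For sites with a recovered control this was fixed, since the minimum of 9 tags against 2 control tags gives a fold of 5.15. The highest tags and fold among the 57 were those of the site of 102 tags with 3 control tags described above.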

How the data were processed

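The submitters' processing notes name mm9 and Bowtie for the alignment, the version used for mm9 not given in the sources used here. Per the file headers, SISSRs 1.4 then made the calls, with thresholds of 0.05 on P and 10 on E, 20 bp windows and fragments of 204 bp. Deposited counts are tags per site, where the authors kept 1 tag per position. Each fold, as deposited, is the ratio to control tags scaled by library size, and the deposited p-value is the caller's. A site needed 9 tags and a fold of 2. The paper's Methods describe another alignment and call, to mm10.

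From these, sites were counted in 1 Mb windows by their middle, and stretches and runs by gaps between edges. Control tags were recovered from tags, fold and library sizes. Intervals are exact (Poisson or Clopper-Pearson, 95%) and cover counting error only. With 1 library per group no test was run. The named items are the 10 strongest sites, 6 runs with the most sites, 10 fullest windows and 10 longest stretches. Numbers and order of protein-coding genes came from GENCODE M21 (GRCm38). The counting of windows, stretches and runs, the merging of sites and the recovery of control tags were tested on 20 simulated lists. Folds in those lists came from the formula that the recovery inverts, so its success there was fixed. The steps with genes were not tested in this way. The chromosome, lists and settings were chosen with earlier results of these data known. Calculations used pandas 2.3.3, SciPy 1.17.1 and NumPy 2.4.6 in Python 3.11.15, and plots Matplotlib 3.10.9. No mm9 genome was used, so sequences and motifs were not analysed here, nor were the input and RNA-Seq libraries.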

Additional observations from a re-analysis of the deposited data

How the results depend on the processing

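Settings were planned apart from the gene number of RefSeq, which was added after the data were seen and gave 52.9 sites per 100 genes. Of 32 values under other settings, 12 stayed within the interval of the value as deposited, or within 1.5 times for a count. The longest stretch has no interval, and its small changes, to 7.84384 and 7.87016 Mb from 7.84362 Mb, were counted as not staying. Chromosome 7 had the fewest sites per gene of the 19 autosomes under each setting run. This measure chose the chromosome, so the rank is a description, and the window settings cannot change it. Without receptors and the other tandem families, the interval of chromosome 7 overlapped that of chromosome 3. The sites per 100 genes were 66.1 without receptor genes, 78.5 without these and the other tandem families, 45.6 for sites with a p-value of 0.001 or less, 45.2 with sites merged within 1 kb and 23.7 at sites with more tags than the median of 13. The 480 sites with more tags had by construction a median of 20 tags and a median fold of 20.61 (14.88 at the p-value), and the 10 strongest were kept. The share with another site within 10 kb was 52.5% at the p-value, 39.6% at more tags and 41.2% merged. Empty windows were 38.3% at more tags, when chromosome 3 was higher with 38.8%, 41.8% with windows of 0.5 Mb and 17.1% with windows of 2 Mb. The longest stretch was 7.87 Mb at the p-value and 7.84 Mb at more tags. The p-value setting kept 923 sites, the same number as reached a fold of at least 10. It is therefore no clear separate check from that fold. Runs of 5 or more numbered 24 as deposited, 16 at the p-value, 6 at more tags and 7 merged, settings that drop or join sites. With gaps of at most 5 kb, which split runs, they numbered 12, and with gaps of at most 20 kb 33. No paired analysis was possible because the comparison had 1 ChIP library per group and no test. The precision given is that of counting, as no second ChIP library of either group was analysed here.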
